A study of Mus musculus with 12 samples.

Results

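The interleukin-1 family and its receptors were followed in CD11c+ cells from the lungs of infected mice. The list held 9 genes: the ligands Il1a, Il1b, Il18 and Il33, the secreted inhibitors Il1rn and Il18bp, and the receptors Il1r1, Il1r2 and Il1rl1. A gene was taken where a probe set carried its symbol and no other, which gave 11 probe sets for 8 of the 9 genes, among 18193 genes on the array. Il1rl1, the receptor of interleukin-33, had no probe set named in this way and was not analysed here. Each of the 12 Affymetrix arrays held RNA of 1 mouse. Wildtype mice and IFNAR-/- mice, in which the type I interferon receptor is missing, all received Pneumocystis into the trachea, and 3 mice of each genotype were taken at day 7 and 3 at day 14. There was no uninfected group, and the labels give neither the strain nor the age of the mice. Cells were taken from collagenase-digested lungs with beads against CD11c, a surface protein of alveolar macrophages and dendritic cells. The labels state a high purity with a small share of lymphocytes and some unidentified cells. The study asked whether type I interferon signalling starts in these cells after infection and whether it bears on the inflammatory response as clearance begins.

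Interleukin-1 alpha and interleukin-1 beta both act through the receptor Il1r1, which signals through Myd88 and kinases of the Irak family to the transcription factor NF-kappaB. Il1rn encodes a secreted antagonist that occupies Il1r1 without signalling, and Il1r2 encodes a decoy receptor that binds the ligands without passing a signal on. Interleukin-18 and interleukin-33 use related receptors and are known for interferon gamma production and for type 2 responses, Il18bp encodes a protein that binds and neutralises interleukin-18, and caspase-1 cuts the precursors of interleukin-1 beta and interleukin-18 into their active forms. Arrays of this kind measure transcripts only, so the cut and secreted proteins were not measured here.

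Il1a and Il1b were neighbours on chromosome 2 in the RefSeq gene order, and both transcripts, with that of Il18, were low in wildtype cells at day 14. For this reason the 250 bases upstream of their start sites are shown. They come from RefSeq, assembly GRCm38.p6, and read 5′ to 3′ towards the start site. Il1a lies on the minus strand at chr2:129309973-129310222, Il1b on the minus strand at chr2:129371140-129371389 and Il18 on the plus strand at chr9:50554450-50554699. Capitals mark matches to the searched motifs.
Il1a: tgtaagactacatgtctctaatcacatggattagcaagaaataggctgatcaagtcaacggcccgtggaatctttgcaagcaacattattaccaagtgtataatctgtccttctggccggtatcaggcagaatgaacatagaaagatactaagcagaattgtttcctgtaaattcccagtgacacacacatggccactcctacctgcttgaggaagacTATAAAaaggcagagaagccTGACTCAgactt
Il1b: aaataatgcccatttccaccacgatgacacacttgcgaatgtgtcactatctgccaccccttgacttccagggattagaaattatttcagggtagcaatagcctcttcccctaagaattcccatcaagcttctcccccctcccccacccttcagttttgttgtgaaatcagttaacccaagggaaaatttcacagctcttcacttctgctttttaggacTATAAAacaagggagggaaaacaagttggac
Il18: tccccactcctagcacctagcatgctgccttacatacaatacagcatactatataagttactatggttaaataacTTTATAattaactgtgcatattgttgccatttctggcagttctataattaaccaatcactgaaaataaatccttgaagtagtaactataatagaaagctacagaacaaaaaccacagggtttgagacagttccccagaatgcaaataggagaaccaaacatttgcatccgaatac
The Il1a window held TATAAA at position -32 from the start and an AP-1 motif, TGANTCA, at position -12. The Il1b window held TATAAA at position -31. In the Il18 window TATAAA was found on the opposite strand, with its match beginning at position -175. None of these matches overlapped another. Of 32536 windows of the same length, 12.31% held TATAAA and 6.73% held the AP-1 motif on either strand. The same search covered the kappaB motif, held by 3.92% of windows, the interferon regulatory factor motif GAAANNGAA, held by 7.15%, the STAT motif TTCNNNGAA, held by 7.04%, and the C/EBP motif TTGCNNAA, held by 9.57%. It also covered the CRE motif TGACGTCA, held by 1.56%, and the PU.1 motif GAGGAAGT, held by 2.45%. The letters of these 6 motifs were in none of the 3 windows. A match describes the letters of the window and does not show a bound site.

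Each value below is a log2 ratio of the gene on an array to its median over all 12 arrays. A value of 0 is that median and a difference of 1 is 2-fold. The ratios compare arrays for 1 gene and do not compare the levels of different genes, so whether Itgax, which encodes CD11c, and other defining markers were present or absent could not be checked. On the Ifnar1 probe set that separated the genotypes, the highest IFNAR-/- array of each day was lower than the lowest wildtype array of that day, and the other Ifnar1 probe set did not separate them. Signs of RNA quality and of other cells moved with some groups or arrays and are set beside the results. The 5′ over 3′ signal of the actin and Gapdh control probe sets, a sign of RNA integrity, was -0.24, -0.18 and -0.91 in the wildtype day 14 arrays, between 0.06 and 0.16 in the IFNAR-/- day 14 arrays and between 0.08 and 0.18 in the wildtype day 7 arrays. In the IFNAR-/- day 7 arrays it was 0.08, -0.52 and 0.11. Poly-A spike-in signals (log2) were -2.11, -1.94 and -3.35 for wildtype day 14 against 0.84, 1.47 and 2.18 for wildtype day 7. Across IFNAR-/- arrays they ranged from -3.60 to 1.43. The 18S control signals were 2.50, 0.30 and 0.93 for wildtype day 14 against -0.18, 0.07 and -0.04 for wildtype day 7. Across IFNAR-/- arrays these ranged from -0.45 to 0.92. Both signals thus split the wildtype days without overlap. The 18S signal was not tested in a fit. IFNAR-/- day 7 mouse 3 and wildtype day 7 mouse 1 carried high median ratios of lung epithelial markers, 2.11 and 1.69 over 18 genes, where the other arrays lay between -0.48 and 0.35. IFNAR-/- day 7 mouse 3 and IFNAR-/- day 14 mouse 2 had stood apart over all genes in an earlier analysis of these data, and without both Il1a, Il1b, Il18 and Il1r1 passed at day 14 and Il1rn did not (adjusted p 0.055). The RNA came from bulk cells, in which fewer cells of a type and less RNA per cell cannot be told apart.

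More of the 8 genes passed between the genotypes at day 14 than at day 7. Of the 8, 4 were higher and 1 was lower in IFNAR-/- cells at day 14, at an adjusted p at or under 0.05 in a limma fit over all genes, where 5.04% of all genes passed. At day 7 the count was 0 of 8 by limma, against 2.64% of all genes, although 3 of the 8 had an unadjusted p under 0.05. Over the mean of both days 3 of 8 passed, against 4.19%. The change of the genotype difference between the days passed for 3 of 8, against 2.48%. In wildtype cells 2 genes rose and 3 fell from day 7 to day 14, against 7.98% of all genes, and in IFNAR-/- cells 1 fell, against 12.3%. Arrays of the genotypes did not overlap for 4 of 8 genes at day 7 and for 6 of 8 at day 14, where the shares of all genes were 24% and 23.4%. Arrays of the days did not overlap for 6 of 8 genes in wildtype cells, against 31.1%, and for 4 of 8 in IFNAR-/- cells, against 34%. The genes were chosen with earlier results of these data known, so these counts describe them.

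**Figure D1:**
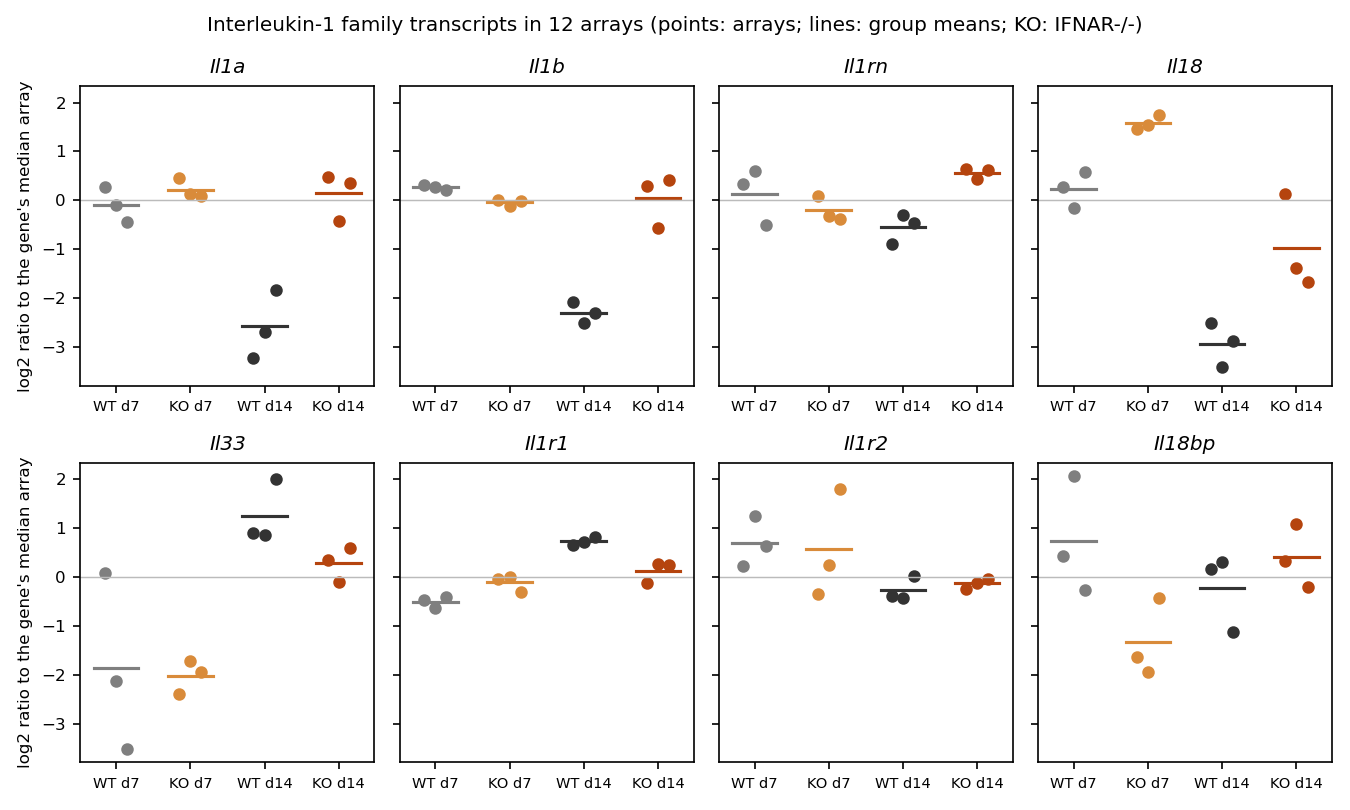
Log2 ratio of each measured interleukin-1 family gene to its own median over the 12 arrays (vertical axis), for wildtype (WT) and IFNAR-/- (KO) cells at day 7 (d7) and day 14 (d14); points are arrays, 1 mouse each, and lines are group means of 3. The wildtype day 14 points of Il1a, Il1b and Il18 lie below those of every other group, and those of Il1r1 and Il33 lie above.

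The interleukin-1 ligands were low in the wildtype day 14 arrays. Il1b, the main secreted form, was at -2.08, -2.52 and -2.29 in the 3 wildtype day 14 arrays and at 0.30, -0.56 and 0.42 in the IFNAR-/- day 14 arrays. At day 7 Il1b was at 0.32, 0.28 and 0.21 in wildtype and at 0.02, -0.11 and -0.01 in IFNAR-/- arrays. All 3 wildtype day 14 arrays thus lay below the other 9, and at day 7 every wildtype array lay slightly above every IFNAR-/- array. At day 14 Il1b was 5.11-fold higher in IFNAR-/- than in wildtype cells, a log2 difference of 2.35 ± 0.21 (SE, n = 3 against 3) with a limma adjusted p of 0.000904. In wildtype cells it fell by 2.57 ± 0.21 from day 7 to day 14 (adjusted p 0.000246). In IFNAR-/- cells the difference between the days was 0.09 ± 0.21 with a 95% interval from -0.38 to 0.56 (adjusted p 0.804). The day 7 genotype difference was -0.30 ± 0.21 (adjusted p 0.669). The genotype difference at day 14 minus that at day 7 was 2.66 ± 0.30 (adjusted p 0.00523), and 2.48% of all genes passed that test.

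Il1a, the form that is active without cleavage and is also held in the cell, was likewise lowest in the wildtype day 14 arrays. It was at -3.21, -2.68 and -1.82 in the wildtype day 14 arrays and at 0.48, -0.41 and 0.36 in the IFNAR-/- day 14 arrays. The day 7 arrays held 0.27, -0.09 and -0.44 in wildtype and 0.45, 0.13 and 0.08 in IFNAR-/- cells. The wildtype day 14 arrays again lay below all others, and the other 3 groups overlapped. Il1a was 6.57-fold higher in IFNAR-/- than in wildtype cells at day 14, by 2.72 ± 0.33 (SE, adjusted p 0.00279), and differed by 0.31 ± 0.33 at day 7 (adjusted p 0.847). From day 7 to day 14 it fell by 2.49 ± 0.33 in wildtype cells (adjusted p 0.00211) and differed by -0.08 ± 0.33 in IFNAR-/- cells (adjusted p 0.897). Its genotype difference was larger at day 14 than at day 7 by 2.41 ± 0.47 (adjusted p 0.028). Over the mean of both days Il1a was higher in IFNAR-/- cells by 1.51 ± 0.24 (adjusted p 0.00638) and Il1b by 1.02 ± 0.15 (adjusted p 0.00492).

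The low Il1a and Il1b values stand in the arrays with the low 5′ over 3′ signal. IFNAR-/- day 7 mouse 2, 1 array of another genotype and day, had a 5′ over 3′ signal of -0.52 and held Il1b at -0.11 and Il1a at 0.13. The part of this signal in the Il1a and Il1b values was not tested apart from the groups. With that signal as a term of the fit the day 14 differences were 2.27 for Il1b (adjusted p 0.0286) and 3.11 for Il1a (adjusted p 0.0303), while the number of all genes that passed went from 917 to 37. The change of the genotype difference did not pass with this term, at 2.54 for Il1b (adjusted p 0.1) and 2.97 for Il1a (adjusted p 0.143). Markers of monocytes, a known source of Il1b, also moved: 4 of 10 were higher and 0 lower in IFNAR-/- cells at day 14, against 5.04% of all genes. Their medians there were 0.17, -0.03 and 0.26 in IFNAR-/- and -0.71, -0.17 and -0.33 in wildtype arrays. In the day 7 arrays the medians lay between -0.18 and 0.23. At day 7, 2 of the 10 were lower and 0 higher in IFNAR-/- cells, against 2.64%. The monocyte list holds Nr4a1, one of the genes most like Il1b over the 12 arrays (Pearson's r 0.965). It is therefore not independent of the Il1b pattern. Of 17 dendritic cell markers 5 were higher and 0 lower at day 14, against 5.04%. Their medians there lay between 0.004 and 0.34 in IFNAR-/- and between -0.36 and -0.10 in wildtype arrays. At day 7 the direction was the opposite, with 9 of the 17 lower and 0 higher in IFNAR-/- cells, against 2.64%. The day 7 medians lay between -0.52 and -0.36 in IFNAR-/- and between 0.24 and 0.42 in wildtype arrays. The change of the genotype difference passed for 8 of the 17, against 2.48% of all genes. Neutrophil marker medians at day 14 lay between 0.09 and 0.21 in IFNAR-/- and between -0.35 and -0.13 in wildtype arrays, and 0 of the 12 markers passed. The part of these markers in the Il1a and Il1b results was not tested. For Il1a the test of the change of the genotype difference was lost in 11 of 25 alternatives, among them 7 of the 12 in which 1 array was left out (wildtype day 7 mouse 1 or 2, wildtype day 14 mouse 2, IFNAR-/- day 7 mouse 1 or 2, or IFNAR-/- day 14 mouse 1 or 3).

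**Figure D2:**
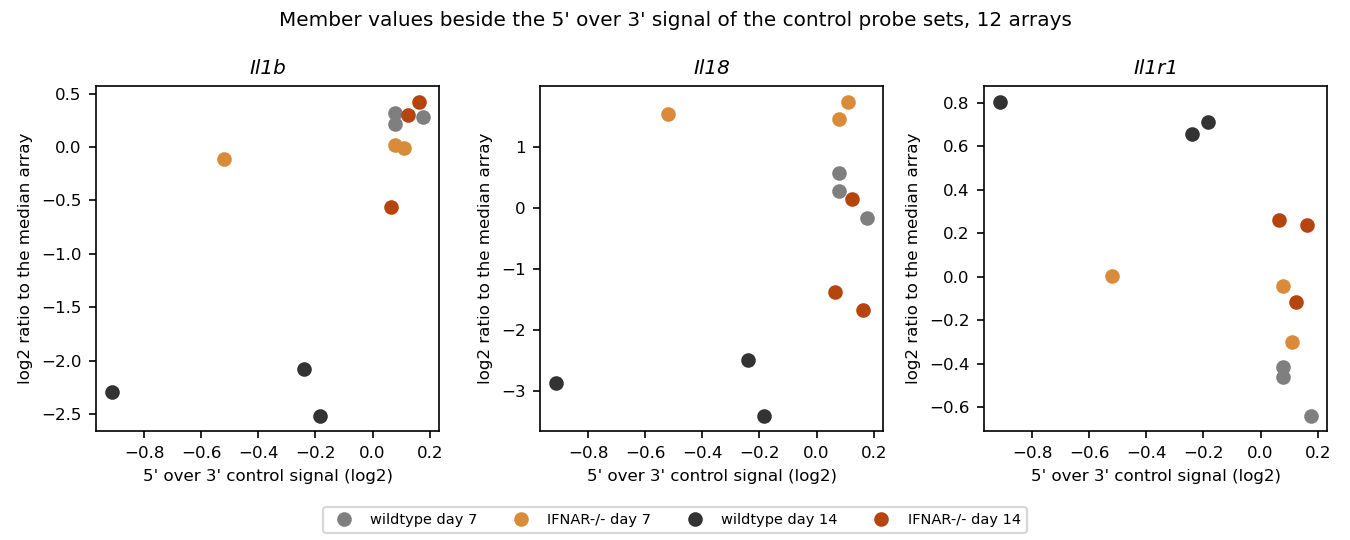
Log2 ratios of Il1b, Il18 and Il1r1 (vertical axes) against the 5′ over 3′ signal of the actin and Gapdh control probe sets on the log2 scale (horizontal axis), 1 point per array, coloured by group. The 3 wildtype day 14 arrays lie below 0 on the horizontal axis together with 1 IFNAR-/- day 7 array at -0.52.

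Il18 fell with time in both genotypes, and over both days together it was higher in IFNAR-/- cells. At day 7 it was at 1.46, 1.54 and 1.74 in IFNAR-/- and at 0.27, -0.16 and 0.58 in wildtype arrays. At day 14 it was at 0.14, -1.37 and -1.67 in IFNAR-/- and at -2.50, -3.40 and -2.88 in wildtype arrays. The genotypes did not overlap on either day, and within each genotype the days did not overlap. Over the mean of both days Il18 was 3.15-fold higher in IFNAR-/- cells, by 1.66 ± 0.28 (SE, adjusted p 0.00962). The difference was 1.35 ± 0.40 at day 7, which did not pass (adjusted p 0.118), and 1.96 ± 0.40 at day 14, which did (adjusted p 0.0222). Its change between the days was 0.61 ± 0.57 with a 95% interval from -0.64 to 1.85 (adjusted p 0.636). From day 7 to day 14 Il18 fell by 3.16 ± 0.40 in wildtype (adjusted p 0.00162) and by 2.55 ± 0.40 in IFNAR-/- cells (adjusted p 0.00303).

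Markers of alveolar macrophages, the resident CD11c+ cells of the airspace, also changed. The median over the 14 measured of 19 markers lay between 0.69 and 0.99 in IFNAR-/- day 7 arrays and between -0.08 and 0.71 in wildtype day 7 arrays. At day 14 it lay between -0.64 and 0.04 in IFNAR-/- and between -1.11 and -0.67 in wildtype arrays. The genotypes thus overlapped at day 7, where none of the 14 markers passed by limma and 4 had an unadjusted p under 0.05. They did not overlap at day 14, where 4 of the 14 were higher in IFNAR-/- cells, against 5.04% of all genes, and 10 did not pass. From day 7 to day 14, 8 fell and 0 rose in wildtype cells, against 7.98% of all genes. In IFNAR-/- cells 6 fell and 0 rose, against 12.3%. The list holds Cidec, one of the genes most like Il18 over the 12 arrays (Pearson's r 0.982). The part of these markers in the Il18 result was not tested. The day 14 difference of Il18 did not pass under quantile normalization, at 1.19 (adjusted p 0.203), nor without wildtype day 14 mouse 2 (adjusted p 0.0754) or mouse 3 (adjusted p 0.065). It was also lost with only the arrays compared (adjusted p 0.0775) and with the 5′ over 3′ signal in the fit, at 2.03 (adjusted p 0.186). The difference over both days did not pass under quantile normalization either, at 1.09 (adjusted p 0.118).

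Il33, an alarmin that is known mainly from epithelial and endothelial cells, lay higher at day 14 than at day 7 in both genotypes. In the main fit, which shares 1 estimate of the spread, the difference between the days passed in wildtype cells only. In wildtype arrays it was at 0.08, -2.13 and -3.51 at day 7 and at 0.90, 0.86 and 2.00 at day 14. In IFNAR-/- arrays it was at -2.39, -1.71 and -1.95 at day 7 and at 0.34, -0.10 and 0.60 at day 14. The days did not overlap in either genotype, and at day 14 every wildtype array lay above every IFNAR-/- array. Il33 rose 8.61-fold with time in wildtype cells, by 3.11 ± 0.69 (SE, adjusted p 0.0205). In IFNAR-/- cells the difference between the days was 2.30 ± 0.69 and did not pass (adjusted p 0.0513). The same SE served both genotypes, although the standard deviation at day 7 was 1.81 in wildtype and 0.34 in IFNAR-/- arrays. The genotype difference was -0.97 ± 0.69 at day 14 with a 95% interval from -2.48 to 0.54 (adjusted p 0.469) and -0.16 ± 0.69 at day 7 (adjusted p 0.975). Its change between the days was -0.81 ± 0.97 by limma (adjusted p 0.729), so the rises of the genotypes were not told apart.

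The high Il33 value among the wildtype day 7 arrays, 0.08, belonged to mouse 1, the array with the lung epithelial marker median of 1.69 and an endothelial marker median of 1.54. IFNAR-/- day 7 mouse 3, with medians of 2.11 and 2.60 for the same lists, held Il33 at -1.95, between the other mice of its group. At day 14, when Il33 was high, the 6 arrays had lung epithelial medians between -0.48 and 0.14 and endothelial medians between -0.40 and -0.01. The part of these markers in the Il33 values was not tested. Without both day 7 arrays that were high in epithelial markers the rise in wildtype cells was 4.07 (adjusted p 0.00267), and without wildtype day 7 mouse 3, the lowest array, it was 2.28 (adjusted p 0.0446). The rise in wildtype cells did not pass without wildtype day 7 mouse 2 (adjusted p 0.0676), without wildtype day 14 mouse 3 (adjusted p 0.0782), with only the arrays compared (adjusted p 0.0695), with the 5′ over 3′ signal in the fit (adjusted p 0.272) or with the poly-A spike-in signal (adjusted p 0.25). In IFNAR-/- cells the difference between the days passed with quantile normalization, array weights, only the arrays compared and genes above the median standard deviation. It also passed without wildtype day 7 mouse 1 or mouse 3, and without both arrays high in epithelial markers.

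Il1rn, the receptor antagonist, was higher in IFNAR-/- cells at day 14 by a smaller margin. The mean of its 3 probe sets was at 0.65, 0.43 and 0.62 in IFNAR-/- day 14 arrays and at -0.90, -0.30 and -0.46 in wildtype day 14 arrays, which did not overlap. At day 7 it was at 0.09, -0.32 and -0.39 in IFNAR-/- and at 0.34, 0.59 and -0.51 in wildtype arrays, which did. The day 14 difference was 1.12 ± 0.26 (SE), 2.17-fold, with a limma adjusted p of 0.0329. The probe sets differed in size: with each tested by itself, 1423017_a_at differed by 1.89 (adjusted p 0.0149), 1425663_at by 0.85 (adjusted p 0.131) and 1451798_at by 0.62 (adjusted p 0.162). Leaving out any 1 of the 6 day 14 arrays ended the call, with adjusted p values from 0.0538 to 0.0916. The change of the genotype difference, 1.46 ± 0.36, did not pass (adjusted p 0.0593).

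Il18bp, the soluble inhibitor of interleukin-18, passed in none of the 6 comparisons by limma, with an unadjusted p under 0.05 in 3 of them. At day 7 it was at -1.63, -1.95 and -0.43 in IFNAR-/- and at 0.43, 2.06 and -0.27 in wildtype arrays, which did not overlap. At day 14 the arrays held 0.33, 1.08 and -0.22 in IFNAR-/- and 0.16, 0.31 and -1.12 in wildtype cells, and these overlapped. The day 7 difference was -2.08 ± 0.61 (SE) with a 95% interval from -3.42 to -0.73 (adjusted p 0.115). The interval is that of a single gene, and the adjustment runs over all 18193. With array weights in the fit Il18bp passed at day 7 and between the days in IFNAR-/- cells, and the latter also passed without wildtype day 7 mouse 2.

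The signalling receptor Il1r1 moved against its ligands. Averaged over its 2 probe sets it was at 0.66, 0.71 and 0.81 in wildtype day 14 arrays and at -0.12, 0.26 and 0.24 in IFNAR-/- day 14 arrays. At day 7 it was at -0.46, -0.64 and -0.41 in wildtype and at -0.04, 0.00 and -0.30 in IFNAR-/- arrays. Wildtype arrays were thus the highest of all at day 14 and the lowest of all at day 7, with no overlap between genotypes on either day. Il1r1 rose in wildtype cells by 1.23 ± 0.13 (SE, adjusted p 0.000809), 2.35-fold, and in IFNAR-/- cells the difference was 0.24 ± 0.13 (adjusted p 0.235). It was lower in IFNAR-/- cells at day 14 by a log2 difference of -0.60 ± 0.13 (adjusted p 0.0258). At day 7 the difference was 0.39 ± 0.13 and did not pass (adjusted p 0.16). The genotype difference changed between the days by -0.99 ± 0.18 (adjusted p 0.0221). That call was lost in 8 of 25 alternatives, 5 of them with 1 array left out (wildtype day 7 mouse 1 or 2, wildtype day 14 mouse 3, or IFNAR-/- day 7 mouse 1 or 2), with adjusted p values from 0.0511 to 0.0643.

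The 2 Il1r1 probe sets disagreed. On 1448950_at the wildtype arrays went from -0.88, -1.17 and -0.83 at day 7 to 1.18, 1.29 and 1.40 at day 14, while the IFNAR-/- arrays lay between -0.50 and 0.32 on both days. On 1459777_at all 12 arrays lay between -0.19 and 0.27. Tested by itself, 1448950_at differed between genotypes by 0.78 ± 0.16 (SE) at day 7 (adjusted p 0.0404) and by -1.11 ± 0.16 at day 14 (adjusted p 0.00726), in opposite directions. On 1459777_at these differences were 0.003 and -0.08 (adjusted p 1 and 0.762). The mean over both probe sets therefore carries a smaller difference than 1448950_at, and why they disagree was not tested. With the 5′ over 3′ signal in the fit the day 14 difference of the mean was -0.46 (adjusted p 0.321) and the change of the genotype difference -0.79 (adjusted p 0.283), neither of which passed, while the rise in wildtype cells passed at 1.09 (adjusted p 0.0242). The day 14 call was also lost without IFNAR-/- day 14 mouse 1 (adjusted p 0.0673) and without wildtype day 14 mouse 2 (adjusted p 0.0698) or mouse 3 (adjusted p 0.0865).

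The decoy receptor Il1r2, a gene of neutrophils and monocytes as well, passed in none of the 6 comparisons by limma, with an unadjusted p under 0.05 in 1 of them. It was at -0.36, 0.25 and 1.80 in IFNAR-/- day 7 arrays and at 0.23, 1.25 and 0.63 in wildtype day 7 arrays. The day 14 arrays lay close together, at -0.24, -0.12 and -0.04 in IFNAR-/- and at -0.40, -0.43 and 0.01 in wildtype cells. The highest value belonged to IFNAR-/- day 7 mouse 3, whose median over 12 neutrophil markers was 1.11, where the other 11 arrays lay between -0.35 and 0.29. In wildtype cells the difference between the days was -0.98 ± 0.44 (SE, adjusted p 0.219), and it passed in 4 alternatives: without IFNAR-/- day 7 mouse 3, without both arrays that stand apart, without both arrays high in epithelial markers, and with the poly-A spike-in signal in the fit. Il1r2, Il1r1, Il1rl2, Il1rl1, Il18r1 and Il18rap followed each other in this order on chromosome 1 in the RefSeq gene table. Of this run of genes Il1r1 passed at day 14 as lower and Il18r1, a chain of the interleukin-18 receptor, as higher in IFNAR-/- cells, by 1.61 ± 0.31 (adjusted p 0.0186).

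**Figure D3:**
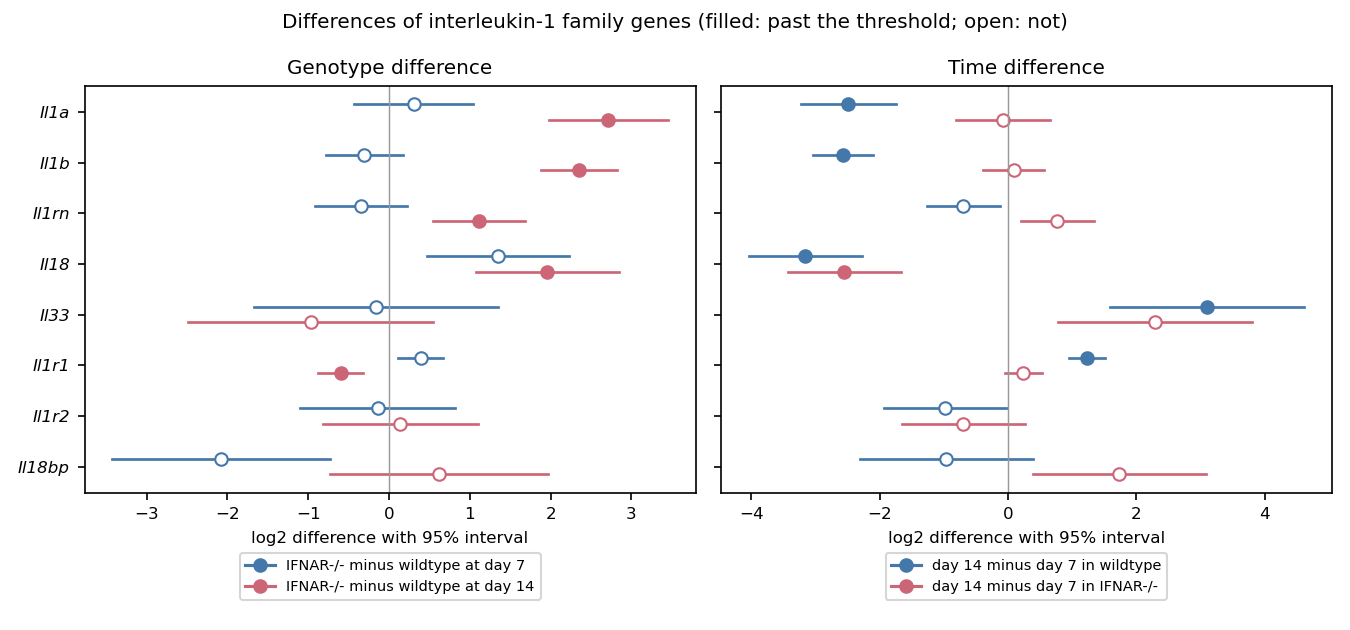
Log2 differences of the 8 measured genes with 95% intervals of the limma fit (horizontal axes), between genotypes at each day on the left and between days in each genotype on the right; filled points passed an adjusted p of 0.05 and open points did not. The filled day 14 points of Il1a, Il1b, Il1rn and Il18 lie to the right of 0 and that of Il1r1 to the left. The open day 14 points of Il33, Il1r2 and Il18bp lie at -0.97, 0.14 and 0.62. The time differences of Il1a and Il1b in IFNAR-/- cells, -0.08 and 0.09, lie near 0.

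Of 30 genes that interleukin-1 is known to induce, 13 were higher and 0 lower in IFNAR-/- cells at day 14 and 17 did not pass, where 5.04% of all genes passed in either direction, with a median log2 difference of 1.04 beside 0.003 over all genes. Ptgs2, the inducible cyclooxygenase, was higher by 4.39 ± 0.65 (SE, adjusted p 0.00761). Tnf, a cytokine of the same NF-kappaB programme, was higher by 2.74 ± 0.42 (adjusted p 0.00807) and the neutrophil chemokine Cxcl2 by 2.54 ± 0.29 (adjusted p 0.00189). Nfkbiz, a nuclear cofactor of NF-kappaB, was higher by 2.67 ± 0.45 (adjusted p 0.0105), Tnfaip3, a brake on the pathway, by 2.12 ± 0.35 (adjusted p 0.0102) and Ptges, a prostaglandin E synthase, by 0.95 ± 0.15 (adjusted p 0.00844). At day 7, where 2.64% of all genes passed, 1 of the 30 was higher, Ptges by 1.31 ± 0.15 (adjusted p 0.00101), and 1 was lower, the monocyte chemokine Ccl2 at -2.46 ± 0.34 (adjusted p 0.00433). In wildtype cells 12 of the 30 fell and 0 rose from day 7 to day 14, with a median of -0.93 beside 0.02, against 7.98% of all genes. In IFNAR-/- cells 3 rose and 2 fell, a share near the 12.3% of all genes. The genotype difference of Ptgs2, Cxcl2 and Ier3 was larger at day 14 than at day 7, by 5.61 ± 0.92, 2.24 ± 0.41 and 1.97 ± 0.38 (adjusted p 0.015, 0.0216 and 0.0274). Many of these genes also answer other signals, and the comparisons share arrays with those of Il1a and Il1b. The list was chosen with earlier results of these data known, so the counts describe it. The wildtype day 14 arrays hold the low 5′ over 3′ signal. With that signal in the fit 37 of all genes passed at day 14 in place of 917, and its part in this list was not tested.

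Of 20 measured of 24 genes of the signalling chain below the receptor, 2 were higher and 0 lower in IFNAR-/- cells at day 14, with a median of 0.23. These few calls lie near the 5.04% of all genes that passed. The higher genes were Irak3, a kinase-dead inhibitor of the pathway, at 1.44 ± 0.23 (SE, adjusted p 0.00958) and Nfkb2, a subunit of NF-kappaB, at 0.68 ± 0.11 (adjusted p 0.0104). At day 7 the kinase gene Map3k8 was higher by 1.34 ± 0.26 (adjusted p 0.0215). In wildtype cells, where 7.98% of all genes passed, 5 of the 20 fell with time, Rel by 1.44 ± 0.35, the ubiquitin ligase gene Peli1 by 1.03 ± 0.18, Irak3 by 0.90 ± 0.23, Irak2 by 0.86 ± 0.14 and Nfkb2 by 0.53 ± 0.11. In IFNAR-/- cells 3 fell, near the share of 12.3% over all genes, Map3k8 by 1.48 ± 0.26, Peli2 by 1.45 ± 0.18 and Irak2 by 1.01 ± 0.14. Irak2 thus fell in both genotypes.

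Of 19 measured of 24 genes of precursor processing and the inflammasome, 3 were lower and 1 higher in IFNAR-/- cells at day 7, against 2.64% of all genes, and 15 did not pass. At day 14, 2 were lower and 0 higher, against 5.04%, and 17 did not pass. Casp4, the mouse caspase-11 that senses lipopolysaccharide in the cytosol, was lower on both days, at -1.86 ± 0.32 (SE, adjusted p 0.0125) at day 7 and -1.55 ± 0.32 (adjusted p 0.0223) at day 14. Casp1, which cleaves interleukin-1 beta and interleukin-18, was lower at day 7 at -0.74 ± 0.15 (adjusted p 0.0283). P2rx7, the ATP-gated channel upstream of the Nlrp3 inflammasome, was lower at day 7 at -0.87 ± 0.19 (adjusted p 0.0384), and Nlrp10 was higher by 0.96 ± 0.15 (adjusted p 0.00721). At day 14 Naip5, a sensor of bacterial flagellin with close paralogues, was lower at -1.14 ± 0.25 (adjusted p 0.0282). Il1bos, an antisense transcript that overlaps Il1b, fell in wildtype cells with time by 0.49 ± 0.13 (adjusted p 0.0372), and whether its probe set also takes up Il1b transcripts was not tested.

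Other ligands and receptors of the family gave 1 call at day 14 among 12 measured of 16 genes, that of Il18r1 given above, near the 5.04% of all genes. Of 12 measured of 14 genes known as targets of interleukin-18 or interleukin-33, 3 were lower in IFNAR-/- cells at day 7, against 2.64% of all genes, Arg1 at -2.32 ± 0.34 (SE, adjusted p 0.00471), and the chemokines Ccl24 at -1.90 ± 0.33 (adjusted p 0.0129) and Ccl22 at -1.37 ± 0.28 (adjusted p 0.0272). At day 14, 1 was higher, near the 5.04% of all genes, Ifng, the gene of interferon gamma, by 2.32 ± 0.54 (adjusted p 0.033). NK cell marker medians at day 14 were 0.59, 0.81 and -0.05 in IFNAR-/- and -0.46, -0.02 and -0.31 in wildtype arrays, T cell and innate lymphoid marker medians were 0.56, 0.67 and 0.20 against -0.34, -0.19 and 0.07, and their part in the Ifng result was not tested. With time 4 of the 12 rose in wildtype cells, against 7.98% of all genes, Ccl24 by 3.76 ± 0.33, Ccl22 by 2.53 ± 0.28, Ccl17 by 2.28 ± 0.49 and Retnla by 1.92 ± 0.47. In IFNAR-/- cells 5 rose, against 12.3%, Ccl24 by 5.4 ± 0.33, Ccl22 by 3.36 ± 0.28, Ccl17 by 3.25 ± 0.49, Arg1 by 3.12 ± 0.34 and Ifng by 2.57 ± 0.54. The chemokines Ccl17, Ccl22 and Ccl24 thus rose in both genotypes.

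**Figure D4:**
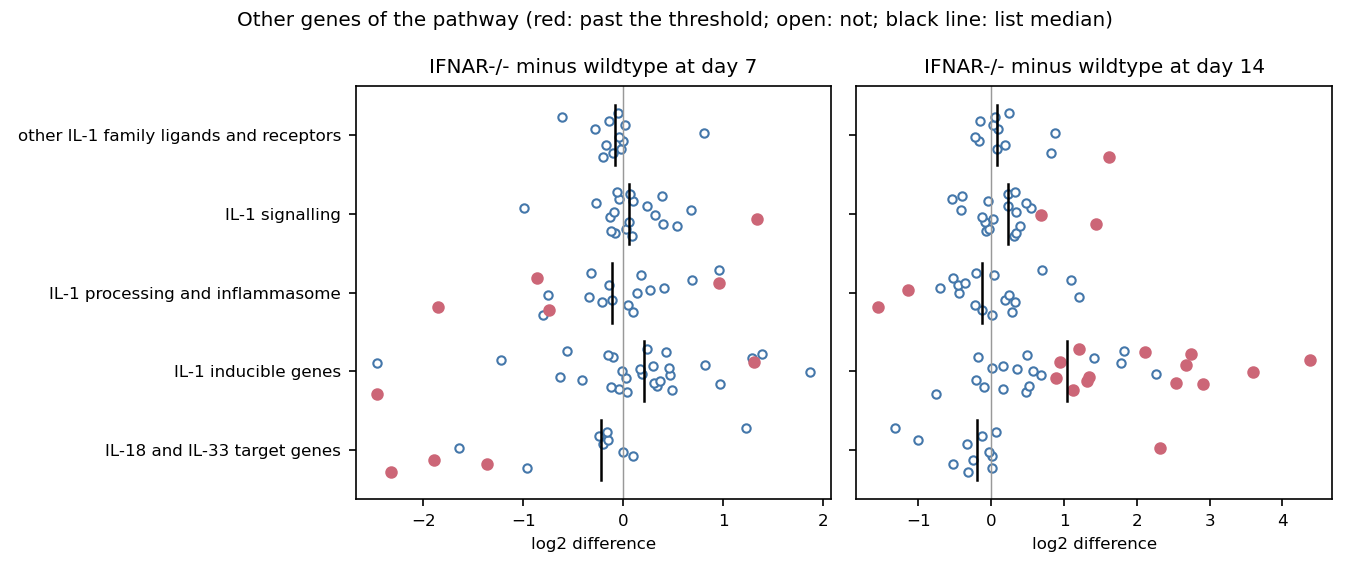
Log2 differences, IFNAR-/- minus wildtype, of the other genes of the pathway at day 7 on the left and day 14 on the right (horizontal axes), 1 point per gene and 1 band per list; red points passed an adjusted p of 0.05, open points did not, and black lines are list medians. At day 14 the 13 red points among the interleukin-1 inducible genes lie to the right of 0 and the list median is 1.04, while the other list medians lie between -0.19 and 0.23.

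Likeness of pattern was measured as Pearson's r of log2 ratios over the 12 arrays and is given as a description, since the arrays share groups and RNA quality. Il1a and Il1b had r = 0.934 with each other, and Il1b and Il1r1 had r = -0.867. The genes most like Il1b were Dnm2 (r = 0.977), Nr4a1 (0.965) and Fosb (0.965), the latter both immediate-early transcription factors. Il1a was most like D17H6S56E-5 (0.96), Cxcl2 (0.959) and Dtl (0.957). Il18 was most like Krt19 (0.992), Cyb561a3 (0.986) and Cidec (0.982). For Il1r2 the nearest was Hdc (0.949), the histamine-forming enzyme, for Il18bp Entpd1 (0.966), for Il33 Zfp668 (0.941), for Il1r1 Mettl21a (0.956) and for Il1rn Lrrk2 (0.926). The likeness of Il1a and Il1b rests mainly on the 3 wildtype day 14 arrays, which are low for both.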

How the data were processed

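RNA of pulmonary CD11c+ cells of 12 mice was measured on 12 arrays, 3 in each of 4 groups, and columns were matched to mice by the sample descriptions. The submitters' processing notes name RMA without a version. The deposited values are linear ratios, read from the values as the authors' signal divided by each probe set's median over the 12 arrays, which lay within 0.02 of 1. Their log2 was used with no further normalization or filter. Probe sets sharing 1 symbol and no other were averaged. A limma 3.58.1 model in R 4.3.3 with 1 mean per group was fitted to all 18193 genes, with 8 residual degrees of freedom and two-sided tests adjusted by Benjamini-Hochberg over all genes at 0.05. The code was also run on simulated data with independent noise, which cannot show how the fit handles RNA quality that moves with the groups. The deposited ratio keeps no brightness, so signal over background is unknown, and precision is limited by the number of arrays. Members and lists were chosen with earlier results of these data known. Named genes were all members, pathway genes past the threshold (at most the 6 with the lowest p per list and comparison) and the 3 genes most like each member, of which some are printed. Alternatives were other scalings, probe set rules, variance priors, array weights, a replicate block, covariates and left-out arrays.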

Additional observations from a re-analysis of the deposited data

Results flagged for a closer look

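For 3 genes the genotype difference itself differed between the days by limma's test of that change. Il1b had a change of 2.66 ± 0.30 (SE) on the log2 scale, from -0.30 at day 7 to 2.35 at day 14. Il1a had a change of 2.41 ± 0.47, from 0.31 to 2.72. Il1r1 had a change of -0.99 ± 0.18, from 0.39 to -0.60, so its estimate turned from above 0 to below 0. Its day 7 difference did not pass (limma adjusted p 0.16). Tested by itself, probe set 1448950_at changed by -1.89 (limma adjusted p 0.00717) and 1459777_at by -0.08 (limma adjusted p 0.858). For Il1a and Il1b the wildtype day 14 arrays alone lay apart, and for Il1r1 the wildtype arrays lay lowest at day 7 and highest at day 14. The wildtype day 14 arrays also hold the low 5′ over 3′ signal, and with that signal in the fit none of the 3 changes passed, at 2.54 for Il1b, 2.97 for Il1a and -0.79 for Il1r1 (limma adjusted p 0.1, 0.143 and 0.283).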

How the results depend on the processing

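The number of members past the threshold was recomputed under 26 alternatives. No member result that passed in the main fit reversed its direction, and the direction of the other member results was not followed. At day 7, where the count was 0, it was 1 (Il1r1) with quantile normalization applied again, with every probe set by itself and with the probe set of largest standard deviation, 1 (Il18) with only the arrays compared, 2 with array weights, and 0 to 1 with 1 array left out. At day 14, where it was 5, it was 3 with quantile normalization and with only the arrays compared, 2 (Il1a and Il1b) with the 5′ over 3′ signal in the fit, and 2 to 5 with 1 array left out. Between days in IFNAR-/- cells, where it was 1, it was 2 with quantile normalization, with every probe set, with the probe set of largest standard deviation, with the trended robust prior, with genes above the median standard deviation and without both arrays high in epithelial markers, 3 with only the arrays compared, 5 with array weights, and 1 to 3 with 1 array left out. For the change of the genotype difference, where it was 3, it was 0 with the 5′ over 3′ signal, 1 with the poly-A signal (Il1b), and 1 to 4 with 1 array left out. The causes were not tested. The counts for the mean of both days and for time in wildtype cells stayed within 1.5 times. The fit without both arrays high in epithelial markers was chosen after seeing the data.

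Deviations from the group means were correlated over all genes for same-numbered mice. Of 18 pairs 3 had a correlation over 0.1, and the range was -0.397 to 0.232. Each deviation is taken from a mean of only 3 arrays, so this check cannot decide whether same-numbered mice share a batch. With the mouse number as a replicate block 679 genes passed at day 14 in place of 917, and Il1rn did not, at 1.12 with an adjusted p of 0.0503. Of the day 14 differences, those of Il1a (2.25 to 3.11) and Il1b (2.01 to 2.72) passed in all 26 alternatives, Il18 was lost in 5, Il1r1 in 6 and Il1rn in 11.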
